A study of Mus musculus with 3 samples.

Results

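Mouse embryonic stem cells in which MLL1 had been inhibited were compared with control cells of the same Mll1fl/fl; Cre-ER TM line on a C57BL/6J background, by single-cell RNA sequencing in wells of a chip. Wells were assigned by the cell type number the authors recorded for each well, and were kept when they held at least 1000 detected genes and under 20% mitochondrial transcripts. That left 1590 of 1657 inhibited wells and 1513 of 1549 control wells, or 3103 of the 4413 wells kept in the whole series. The remaining 1310 wells held Mll1-/- cells, a further cell type from the same floxed line, and entered the fits to estimate the spread between plates. All 3 cell types come from the line with the floxed Mll1 allele and the Cre-ER transgene, and the controls carry the floxed allele undeleted. The labels name neither the inhibitor nor its dose, duration or vehicle, and do not say whether the line is a clone, so the inhibited group is described here only as MLL1 inhibition.

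MLL1, encoded by Kmt2a, is a methyltransferase that places methyl groups on lysine 4 of histone H3, a mark of active promoters. It works in a complex with WDR5, RBBP5, ASH2L and DPY30, binds menin, and has a CXXC domain that recognises unmethylated CpG dinucleotides. It is best known for maintaining Hox gene expression in development and in blood cells. In embryonic stem cells it is one of several enzymes with this activity.

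Each cell type was present on each of 3 plates, which served as the replicates. The labels do not say whether different plates hold cells of different cultures, and the p-values cover the spread among plates, which may be technical. Summed unique molecular identifiers (UMIs, a count of distinct captured transcripts) were 38650746, 29797840 and 38273851 for inhibited wells on plates 1 to 3, against 43773924, 38660757 and 25914860 for control wells. The kept wells with the fewest genes held 1014 in the inhibited group and 1010 in the control group, and the richest wells left out held 999 and 937. Of 3380 distinct well barcodes, 137 occurred on all 3 plates. In 15 wells without a cell the median was 165 UMIs (range 43 to 438). Stem cell genes were expressed in both groups. Pou5f1 averaged 57.5 CPM (UMIs scaled to a common library size) in inhibited and 51.9 CPM in control wells. Sox2 averaged 124 CPM in inhibited and 137 CPM in control wells. The 13 core pluripotency and growth factor genes summed to 1623 to 1666 CPM in inhibited and 1713 to 1758 CPM in control wells. Singly, 8 of the 13 had a higher mean level in inhibited wells (median log2 difference 0.05), and 5 without plate 1 (median -0.06). The 20 naive pluripotency genes summed to 4930 to 5751 CPM in inhibited and 6625 to 6874 CPM in control wells. Most of these sums, and of their difference, came from Dppa5a alone. Of the 20 genes 15 had a lower mean level in inhibited wells (median log2 difference -0.07), and none passed the test of mean level described below. By contrast with these sums, 12 blood and endothelial markers together reached 5.13 to 8.22 CPM in inhibited and 8.57 to 10.2 CPM in control wells. The 18 fibroblast and feeder markers summed to 253 to 345 CPM in inhibited and 253 to 304 CPM in control wells, and the 12 neural markers to 199 to 212 CPM in inhibited and 200 to 231 CPM in control wells, ranges that overlap. Both sums exceeded Pou5f1 or Sox2 alone, so these levels do not settle the label of single wells.

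The median inhibited well held fewer transcripts, and fewer kinds of transcript, than the median control well of the same plate. It held 37093, 28057 and 36389 UMIs per inhibited well on plates 1 to 3, against 41125, 35460 and 42339 UMIs per control well. The difference of the log2 medians averaged -0.24 ± 0.10 (SD over 3 plates; exact two-sided sign permutation p = 0.25, the smallest that 3 plates allow). With wells of at least 2000 genes and under 10% mitochondrial UMIs this difference was -0.05, with plates in both directions. Source wells of the 2 groups overlapped in median UMIs, from 20661 to 46262 for inhibited and from 31485 to 51997 for control ones.

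Because depth alone changes how many genes are seen, each well was thinned to 5869 UMIs drawn at random without replacement; 176 inhibited and 103 control wells below that depth were left out. At this equal depth the median inhibited well still held fewer genes, 1954, 1952 and 1970 on plates 1 to 3, against 2042, 2040 and 2121 in control wells. The mean difference was -109 ± 36.4 genes (SD, n = 3 plates; exact sign permutation p = 0.25). Without thinning the medians were 3904, 3477 and 3772 genes in inhibited wells, against 4246, 3949 and 4572 in control wells. The chip was loaded from 9 source wells of inhibited and 8 of control cells, and the 2 sets did not overlap: their medians ran from 1934 to 2016 genes for inhibited and from 2022 to 2126 for control source wells. The positions changed between plates, since inhibited cells came from the A1, B1 and C1 positions on plate 3 and control cells from those positions on plates 1 and 2. In each quartile of original depth the inhibited wells were lower on all 3 plates, by 77.7 genes on average in the shallowest quartile and by 124 in the deepest.

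At equal depth the 100 most abundant genes of a well took a median of 31.7, 30.7 and 30.6% of UMIs in inhibited wells, against 30.8, 29.9 and 29.7% in control wells. Genes seen by exactly 1 UMI numbered 952, 936 and 952 per inhibited well, against 1034, 1005 and 1097 per control well. The mitochondrial share was also higher on every plate: 3.48, 3.24 and 3.42% in inhibited wells, against 3.11, 3.06 and 3.18% in control wells (mean difference 0.262 ± 0.0974 percentage points, SD, n = 3; exact sign permutation p = 0.25). Wells above 10% made up 4.43, 5.65 and 5.39% of inhibited wells, against 3.40, 2.87 and 1.48% of control wells. Whether mitochondrial share or depth takes part in the differences below was not tested; the gene number difference was -103 under the stricter well filter. Sequencing reads per UMI were close, at 11.5, 9.68 and 10.6 in inhibited wells, against 11.8, 9.91 and 10.7 in control wells.

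**Figure D1:**
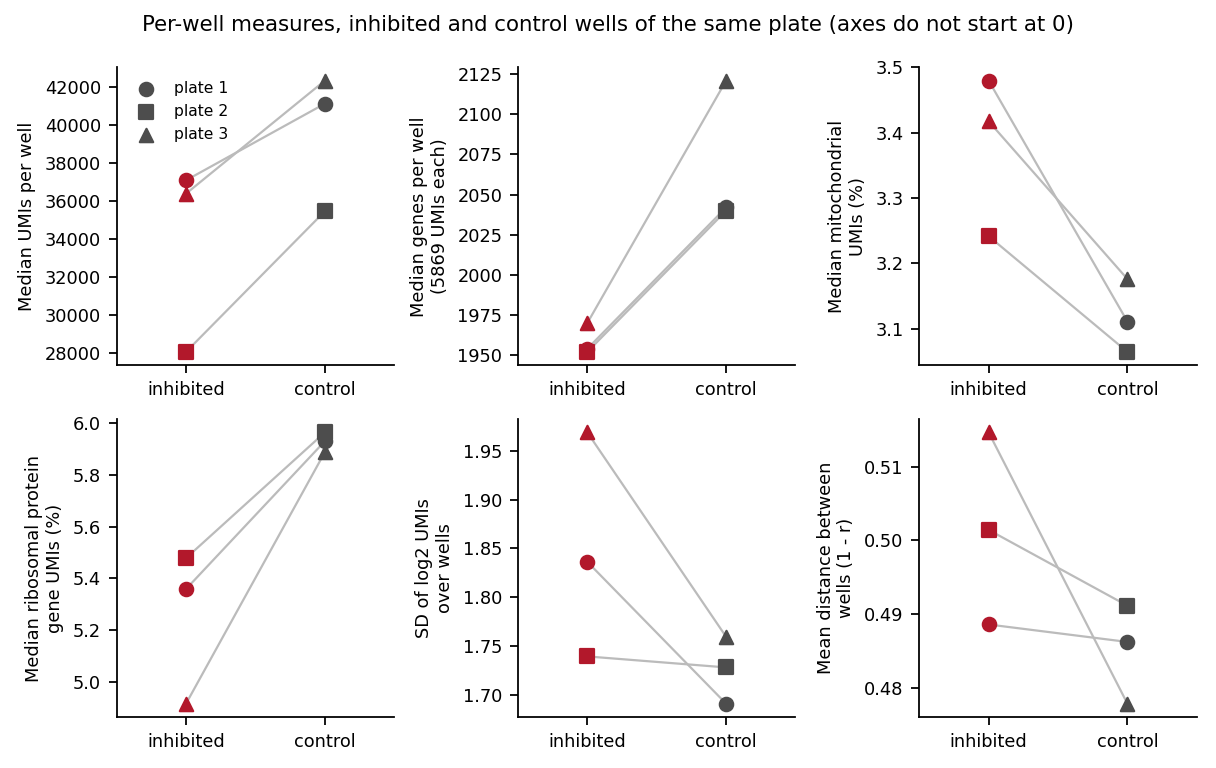
Per-well measures on each plate, with inhibited wells on the left of each panel and control wells on the right; each point is 1 plate, lines join the same plate, and the vertical axes do not start at 0. Median genes per well at 5869 UMIs lay between 1952 and 1970 in inhibited wells, against 2040 to 2121 in control wells.

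When UMIs were summed over wells, few genes were called in mean level, and how many depended on the tool. Of 17119 genes tested with edgeR's quasi-likelihood test, with plate as a block, 1 gene passed an adjusted p of 0.05 (0.00584%), and 1540 had an unadjusted p under 0.05, of which 816 were higher and 724 lower in inhibited wells. DESeq2's Wald test on the same sums called 277 genes, 179 higher and 98 lower. The gene called was mt-Rnr2, the mitochondrial 16S ribosomal RNA (chrM:1094-2675, mm10). It was at 7758, 6225 and 7621 CPM in inhibited wells, against 6114, 4764 and 5662 CPM in control wells, a log2 difference of 0.39 ± 0.04 (SE; edgeR adjusted p = 0.0279). Every inhibited plate lay above every control plate, as for 5.02% of all genes tested in this direction. It was also present in 11 of the 15 empty wells, with 13 UMIs in all. Over source wells mt-Rnr2 overlapped between groups, with 5233 to 8590 of every 1e6 UMIs in inhibited and 4563 to 6900 in control ones. The call did not hold without any 1 of the plates (edgeR adjusted p from 0.181 to 0.783). Of 15 mitochondrial genes listed 12 could be tested in mean level, and 8 of these were above 0 (median log2 difference 0.08); without plate 3, 6 were above 0 (median 0.03). Among them mt-Nd4, a complex I subunit, averaged 4815 CPM in inhibited and 4158 CPM in control wells (log2 difference 0.21 ± 0.06, SE, edgeR adjusted p = 0.358). With wells thinned 8 of 11 mitochondrial genes were above 0 and 3 were called higher. In the detection test described below 4 of the list were tested and went the other way. All 4 were below 0 (median log2 odds ratio -0.38, against -0.14 over all genes). Of these mt-Nd4l was called lower (-0.55, limma adjusted p = 0.0489), but not after centring on each library's median.

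The transcript of the targeted gene passed no test. Kmt2a (chr9:44803355-44881296, minus strand) was detected in 14.9, 16.7 and 18.7% of inhibited wells at equal depth, against 21.6, 19.3 and 19.2% of control wells; in unthinned wells the shares were 40.4, 34.8 and 39.2%, against 53.5, 44.1 and 47.9%. At equal depth the plates did not overlap between groups, as for 14.2% of all genes tested in this direction. The Kmt2a difference did not pass the test (log2 odds ratio -0.32 ± 0.16, SE, limma adjusted p = 0.34). An inhibitor of the protein need not change its transcript, so this level does not check the treatment. All 20 genes for subunits of the MLL and related COMPASS complexes were tested and none was called in mean level (12 above 0, median log2 difference 0.04) or in detection. Wdr5, the core scaffold subunit, averaged 54.5 CPM in inhibited and 47.2 CPM in control wells (edgeR adjusted p = 0.604), and Kmt2c, another methyltransferase of the family, 27.2 CPM in inhibited and 33.4 CPM in control wells (adjusted p = 0.608). Of 29 Hox genes and other MLL1 targets 19 had enough UMIs to test; 11 were above 0 (8 without plate 1) and none was called. Meis1, which encodes a HOX cofactor, averaged 16.8 CPM in inhibited and 21.9 CPM in control wells.

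Below the threshold, the genes with the smallest edgeR p among those above 10 CPM and with the same sign on all plates were, on the higher side, mt-Rnr2, Dusp1, Slc25a4, Smc3, Crip2, Hmgn2, Tsc22d1 and Rn7sk. Dusp1, an early response phosphatase that switches off MAP kinases, was at 97.6, 153 and 145 CPM in inhibited wells, against 66.8, 106 and 95.4 CPM in control wells (log2 difference 0.56 ± 0.09, SE, edgeR adjusted p = 0.217). Crip2, a LIM-domain protein gene, was at 1426, 1587 and 1163 CPM, against 925, 1101 and 818 CPM (0.56 ± 0.10, adjusted p = 0.223), and its groups did not overlap, as for 5.02% of all genes on the higher side. Slc25a4, the mitochondrial ADP/ATP carrier, averaged 1028 ± 51.6 CPM in inhibited and 764 ± 66.1 CPM in control wells (SD, n = 3). Smc3, a cohesin subunit, averaged 1017 ± 25.8 CPM in inhibited and 785 ± 64.3 CPM in control wells. Hmgn2, a nucleosome-binding protein gene, and Tsc22d1, a leucine zipper transcription regulator gene, had log2 differences of 0.40 ± 0.07 and 0.32 ± 0.06 (SE, edgeR adjusted p = 0.223 for each). Rn7sk, the small nuclear RNA that holds the elongation factor P-TEFb inactive, averaged 34.7 ± 3.54 CPM in inhibited and 16.1 ± 8.16 CPM in control wells (log2 difference 1.26 ± 0.23, SE, adjusted p = 0.23).

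On the lower side the same rule gave Rpl22l1, Platr17, Morc1, Cbr3, Gm4149, Rpl37a, Rpl7 and Stra8, all with edgeR adjusted p between 0.0693 and 0.223. Cbr3, a carbonyl reductase, was at 21.6, 22.5 and 23.6 CPM in inhibited wells, against 37.6, 39.2 and 34.8 CPM in control wells. Morc1, a germ cell gene needed for transposon repression in mouse testis, was at 5.21, 5.34 and 4.68 CPM, against 14.1, 12.5 and 18.7 CPM. In both genes the groups did not overlap, as for 6.23% of all genes on the lower side, and neither passed the adjustment over all genes.

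Detection, the share of wells in which a gene was seen by at least 1 UMI, was lower in inhibited wells for most genes. At equal depth 9721 genes had a mean share of 2 to 98% of wells, and limma on the log odds of detection, with plate as a block, called 154 of them (1.58%): 149 were detected in fewer inhibited wells (1.53%) and 5 in more (0.0514%). The whole distribution was displaced, with a median log2 odds ratio of -0.14 and 72.1% of genes below 0. The lower gene number per well given above comes from the same thinned counts, so this displacement is no separate result. At a threshold of 2 UMIs the displacement was nearly absent, with 51.8% of 5737 genes below 0 and a median of -0.01. Relative to the shift at 1 UMI, with each library centred on its own median, 45 genes were called (0.463%), 38 lower and 7 higher. Of the 45, 43 were among the 154. A second random thinning called 131 genes, 70 of them shared with the first. The expected share, which needs no random draw, called 553 genes, 537 of them lower and 139 shared with the 154; centred on each library's median it called 229, 73 higher and 156 lower. The expected share was chosen after seeing the data. Without the plate block 1 gene, Rpl22l1, was called, and leaving out plate 1, 2 or 3 gave 54, 49 or 33 calls. Of the 149 genes with lower shares, 144 also had a lower mean level, with a median log2 difference of -0.31, and 131 had all 3 inhibited plates below all 3 control plates. The 149 were chosen for this difference, and over all genes tested 14.2% had all inhibited plates below all control plates and 1.6% the reverse.

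**Figure D2:**
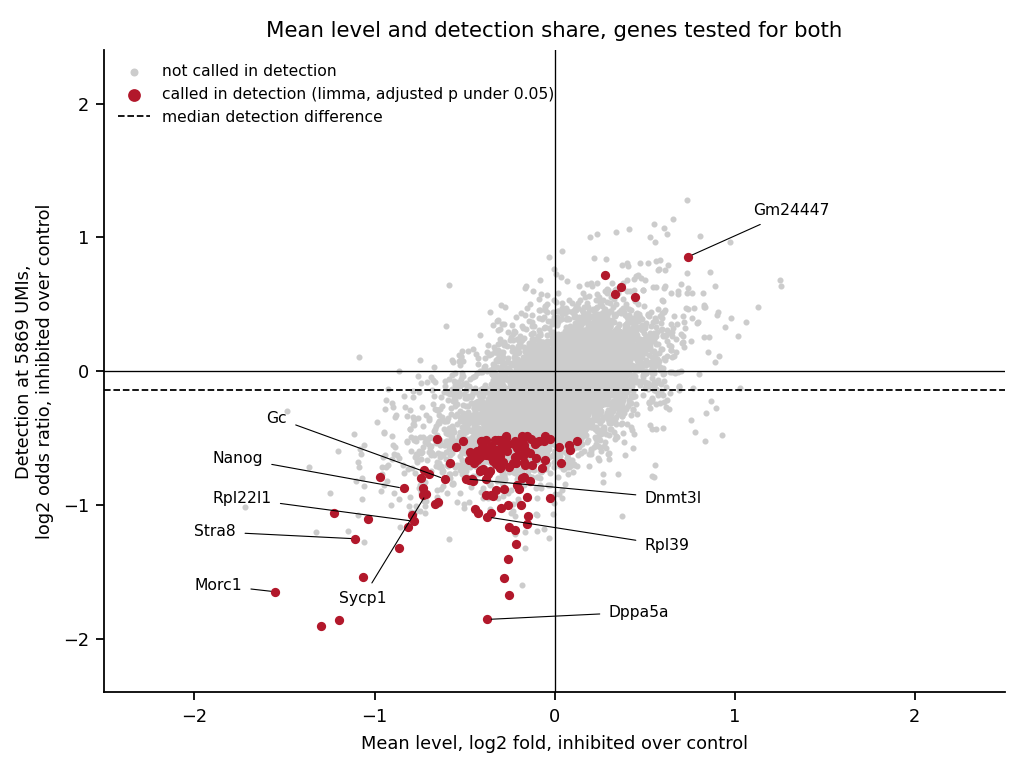
Log2 fold of the mean level (horizontal axis) and log2 odds ratio of detection at 5869 UMIs (vertical axis), inhibited over control, for 9721 genes tested for both; red points were called in detection and the dashed line is the median detection difference of -0.14. Most red points lie in the lower left, where both measures were lower in inhibited wells.

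Rpl22l1, a paralog of the ribosomal protein RPL22 (chr3:28805436-28807424, plus strand), fell the most clearly. It was seen in 25.7, 26.1 and 29.9% of inhibited wells at equal depth, against 44.9, 42.6 and 47.1% of control wells. The highest inhibited plate thus lay well below the lowest control plate, and all inhibited plates were lower for 14.2% of all genes tested. In unthinned wells the Rpl22l1 shares were 58.9, 53.7 and 59.3%, against 75.5, 74.9 and 79.6%, and no empty well held a UMI of it. The log2 odds ratio was -1.12 ± 0.14 (SE, limma adjusted p = 1.67e-08, and 7.22e-07 after centring). Its mean level was 67.5, 77.7 and 85.2 CPM in inhibited wells, against 123, 130 and 143 CPM in control wells (log2 difference -0.78 ± 0.10, edgeR adjusted p = 0.0693). Over source wells the share ran from 23.0 to 33.8% in the 9 inhibited and from 36.8 to 51.2% in the 8 control ones. Mll1-/- wells of the same plates had shares of 36.6, 44.0 and 32.0%; these comparisons share their controls, and the difference between inhibition and deletion was not tested here.

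Gc, Dnmt3l, Platr17 and Gm6083 were the next non-ribosomal genes. Gc, the vitamin D binding protein (chr5:89417522-89457898, minus strand), was detected in 24.7, 22.7 and 24.4% of inhibited wells, against 33.5, 32.6 and 40.7% of control wells (unthinned 48.5, 42.4 and 49.4%, against 64.2, 57.7 and 68.9%). Its log2 odds ratio was -0.81 ± 0.14 (SE, limma adjusted p = 0.000103, and 0.00215 after centring). Its mean UMI count among thinned wells with any was 1.74, 1.79 and 1.97 in inhibited wells, against 1.84, 1.67 and 1.72 in control wells, with no common direction over the plates. Dnmt3l, a catalytically inactive partner of the de novo DNA methyltransferases (chr10:78041947-78063622, plus strand), was seen in 27.8, 24.3 and 26.5% of inhibited wells, against 40.6, 30.8 and 43.9% of control wells (unthinned 62.4, 48.6 and 65.1%, against 74.2, 62.9 and 78.4%; log2 odds ratio -0.80 ± 0.14, adjusted p = 0.000103). Platr17, a transcript named for an association with pluripotency, was seen in 24.9, 23.3 and 19%, against 36.3, 37.6 and 32.1% (-0.92 ± 0.14, adjusted p = 9.31e-06). The plates of these 4 genes did not overlap between groups, as for 14.2% of all genes tested. Over source wells Dnmt3l did overlap, with 22.4 to 35.6% in inhibited and 29.0 to 45.7% in control ones, whereas Gc ran from 18.4 to 30.5% in inhibited and from 30.6 to 41.2% in control ones. Of the 14 genes of the DNA methylation machinery, 13 were tested and only Dnmt3l was called; Tet1, a 5-methylcytosine oxidase gene, had a log2 odds ratio of -0.42 (adjusted p = 0.103).

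The 250 bases before the RefSeq start of 3 of these genes are shown, with each CpG in capitals (GRCm38.p6, gene strand, 5′ to 3′). They are shown because their CpG content ranged from dense to none and the MLL1 protein has a CpG-recognising domain. RefSeq's start differs from the annotated gene start given above for Rpl22l1 and Dnmt3l. The Rpl22l1 window therefore reaches past the annotated start, and the Dnmt3l window lies wholly within the annotated gene.
Rpl22l1 (chr3:28805258-28805507, plus strand): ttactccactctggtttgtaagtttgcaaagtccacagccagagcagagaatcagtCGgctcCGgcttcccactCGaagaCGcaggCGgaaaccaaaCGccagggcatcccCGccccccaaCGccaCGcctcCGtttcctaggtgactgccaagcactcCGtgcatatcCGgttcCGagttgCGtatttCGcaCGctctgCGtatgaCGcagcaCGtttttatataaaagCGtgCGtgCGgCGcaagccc
Dnmt3l (chr10:78042037-78042286, plus strand): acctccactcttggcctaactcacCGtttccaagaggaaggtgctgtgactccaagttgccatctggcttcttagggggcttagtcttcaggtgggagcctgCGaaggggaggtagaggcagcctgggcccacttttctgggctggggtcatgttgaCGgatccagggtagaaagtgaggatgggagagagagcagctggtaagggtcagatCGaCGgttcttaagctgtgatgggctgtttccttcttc
Gc (chr5:89457899-89458148, minus strand): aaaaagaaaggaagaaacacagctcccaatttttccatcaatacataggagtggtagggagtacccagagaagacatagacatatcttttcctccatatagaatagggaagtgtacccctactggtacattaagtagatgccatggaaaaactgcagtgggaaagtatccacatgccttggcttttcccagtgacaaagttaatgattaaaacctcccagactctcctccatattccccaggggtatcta
The Rpl22l1 window held 23 CpG (the letters CG, the same on both strands), the Dnmt3l window 5 and the Gc window 0. Over the same window of all 32817 RefSeq promoters, 7.87% held no CpG and the median was 6. Of the 149 genes with lower shares 93 had a promoter entry, with a median of 15 CpG, 1.08% without any and 67.7% with at least 10, against 17, 0.528% and 80.8% for the 7002 entries of all genes tested. The 3 windows were chosen for their range and do not stand for the called genes. Binding of MLL1 was not measured.

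Naive pluripotency genes, which mark the ground state of embryonic stem cells, gave 18 of 20 genes that could be tested for detection. Of these 15 were below 0, against 72.1% of all genes, and 2 were called lower, against 1.53%, Dppa5a and Nanog; the list median was -0.23, against -0.14 over all genes, and -0.41 without plate 2. After centring, 11 were below 0 and Dppa5a alone was called. Dppa5a, an RNA-binding protein gene abundant in stem cells, was detected in 95.3, 93.2 and 97.6% of inhibited wells, against 98.6, 98.5 and 99.4% of control wells (log2 odds ratio -1.86 ± 0.44, SE, limma adjusted p = 0.0097). Without thinning these shares were 99.6, 98.6 and 100%, against 99.8, 99.5 and 100%. In 6 of 15 empty wells it had at least 1 UMI, 11 UMIs in all. Nanog, a transcription factor that stabilises pluripotency, was detected in 5.10, 3.98 and 5.45% of inhibited wells, against 8.98, 6.74 and 10.3% of control wells (-0.88 ± 0.24, adjusted p = 0.032). In unthinned wells the Nanog shares were 20.1, 13.6 and 20.7%, against 29.7, 22.6 and 35.8%. Over source wells Nanog ran from 2.73 to 6.45% in inhibited and from 4.15 to 12.2% in control ones, and Dppa5a from 92.7 to 98.7% in inhibited and from 97.3 to 99.5% in control ones, so both overlapped. The Nanog call did not hold after centring (adjusted p = 0.151), with a second thinning (0.0852) or without any 1 plate (0.112 to 0.24). Zfp42 and Tfcp2l1, further naive markers, had log2 odds ratios of -0.44 and -0.35 (adjusted p = 0.074 and 0.267). Of the 13 core pluripotency and growth factor genes 11 were tested and none was called; Pou5f1 was detected in 28.8, 30.5 and 27.0% of inhibited wells, against 28.5, 24.7 and 32.4% of control wells, overlapping ranges.

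Germline and meiosis genes were detected in fewer inhibited wells in several cases. Of 24 listed genes 11 passed the detection filter, 9 were below 0, against 72.1% of all genes, and 3 were called lower, against 1.53%: Stra8, Sycp1 and Mael. The median log2 odds ratio was -0.44, against -0.14 over all genes. Without plate 1 none of the list was called (limma, median -0.36), and without plate 2 the median was -0.26 with 2 called. Stra8, which primes germ cells for meiosis, was detected in 2.65, 3.98 and 5.45% of inhibited wells, against 8.29, 7.71 and 10.9% of control wells (-1.25 ± 0.23, SE, limma adjusted p = 0.000387). Sycp1, a component of the synaptonemal complex, was detected in 6.94, 8.17 and 8.77%, against 14.2, 13.3 and 14.7% (-0.92 ± 0.19, adjusted p = 0.00199). Mael, of the transposon-silencing piRNA pathway, was detected in 1.43, 3.39 and 3.79%, against 5.18, 5.97 and 5.45% (-1.07 ± 0.30, adjusted p = 0.0385, and 0.153 after centring). Morc1, outside the list, was detected in 1.84, 2.19 and 1.42%, against 5.18, 5.59 and 6.09% (-1.65 ± 0.32, adjusted p = 0.000639), and none of Stra8, Sycp1, Mael and Morc1 had a UMI in an empty well. Stra8, Sycp1 and Morc1 were also called after centring. In unthinned wells Stra8 was seen in 13.8, 11 and 12.2% of inhibited wells, against 22.4, 21.7 and 26.0% of control wells. Sycp1 was seen in 17.9, 17.5 and 21.8% of unthinned inhibited wells, against 30.1, 29.6 and 36.1% of control wells. Taking the 24 genes as 1 sum, 59.8, 56.0 and 52.1% of inhibited wells held no UMI at equal depth, against 43.2, 43.0 and 38.5% of control wells. Dazl, an RNA-binding regulator of germ cells, was too rare for the detection test, at 0.904, 1.76 and 1.12 CPM in inhibited wells, against 4.00, 5.39 and 8.75 CPM in control wells (edgeR adjusted p = 0.223). Not every member followed: Ddx4, the germ cell helicase, averaged 28.3 CPM in inhibited and 28.7 CPM in control wells.

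**Figure D3:**
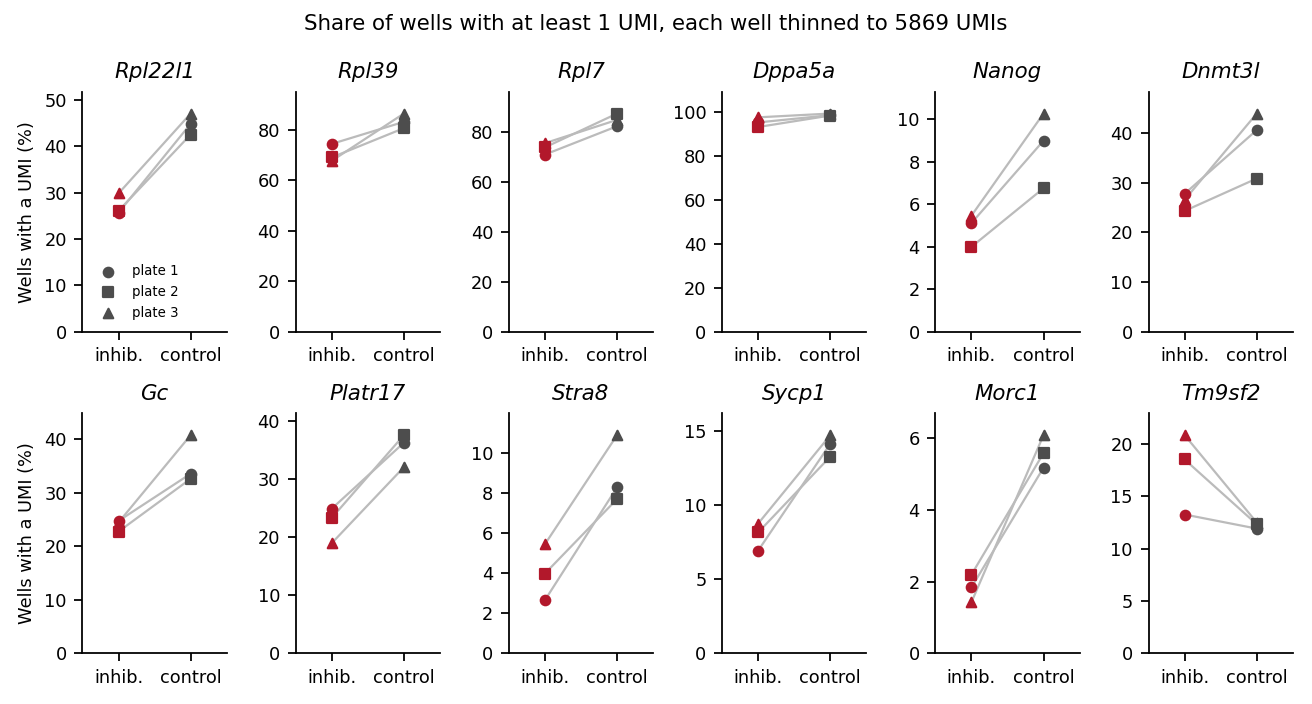
Percentage of wells with at least 1 UMI at 5869 UMIs per well for 12 genes, inhibited wells on the left and control wells on the right of each panel; each symbol is 1 plate. Rpl22l1 lay between 25.7 and 29.9% in inhibited wells, against 42.6 to 47.1% in control wells, and Tm9sf2 ran the other way.

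Ribosomal protein genes, whose products build the cytosolic ribosome, were examined as a group after their values had been seen. Of 79 such genes 60 were within the detection range, 58 were below 0, against 72.1% of all genes tested, and 13 were called lower, against 1.53%. Their median log2 odds ratio was -0.48, against -0.14 over all genes, and 6 of them were called after centring, against 0.463% of all genes. Leaving out plate 1, 2 or 3 gave 7, 5 or 4 calls. Log odds ratios depend on how often a gene is seen, so those of common and rare genes do not compare sizes of change. The median log2 odds of detection over all genes tested lay between -3.26 and -3.01 in inhibited and control libraries. Rpl39 and Rpl7, given below, were seen in most wells, and this unlikeness was not adjusted for. In mean level 69 of 79 were below 0 (median log2 difference -0.15, against -0.00069 over all genes) and none was called. With wells thinned 71 of 77 were below 0, against 49.9% of all genes, and 9 were called lower, against 51 of all 10843 genes. Together they took a median of 5.36, 5.48 and 4.92% of UMIs in inhibited wells, against 5.93, 5.96 and 5.89% in control wells. Rpl39 was detected in 74.5, 69.1 and 67.8% of inhibited wells, against 83.2, 80.7 and 86.5% of control wells (log2 odds ratio -1.09 ± 0.18, SE, limma adjusted p = 2.34e-05). Rpl7 was detected in 71.0, 73.9 and 75.6%, against 82.4, 87.5 and 84.9% (-1.03 ± 0.18, adjusted p = 0.000103). Many of these genes have near-identical pseudogene copies, and how the authors assigned reads that fit several copies was not given in the sources used here, so single members are uncertain. Of 8670 protein-coding genes tested 113 were called in either direction, and of 772 pseudogenes 35 were, against 1.58% of all genes. After centring 31 of these protein-coding genes and 11 of these pseudogenes tested were called, against 0.463% of all genes. The pseudogene Gm6083 was detected in 55.3, 53.8 and 60.9% of inhibited wells, against 67.9, 72.3 and 73.7% of control wells.

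The 5 genes detected in more inhibited wells were Gm24447, Gm23193, Gm5787, Tm9sf2 and Rpph1. Rpph1, the RNA component of ribonuclease P, was detected in 85.9, 62.5 and 91.0% of inhibited wells, against 81.0, 54.1 and 84.6% of control wells (log2 odds ratio 0.63 ± 0.18, limma adjusted p = 0.0479). Tm9sf2, a membrane protein gene of the endosome and Golgi, was detected in 13.3, 18.5 and 20.9%, against 11.9, 12.3 and 12.5% (0.58 ± 0.17, adjusted p = 0.0479). A second thinning called none of the 5 (adjusted p from 0.103 to 0.925), and Tm9sf2 turned to -0.061 at a depth of 12724 UMIs. Wasf3, an actin regulator gene, came next by p (1.28 ± 0.40, adjusted p = 0.081).

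Other pathways showed few calls. Of 24 S phase genes 19 were above 0 in mean level (median log2 difference 0.16), none was called, and Gins2, a replication helicase subunit, was at 144, 187 and 116 CPM in inhibited wells, against 95.2, 136 and 103 CPM in control wells. Of 18 immediate early genes tested 12 were above 0 and none was called. Of 22 p53 target genes 19 were above 0 (median 0.12) and none was called. Over all genes 49.9% were above 0 in mean level. With wells thinned 14 of 21 p53 target, 20 of 23 S phase and 12 of 17 immediate early genes were above 0, and 1 immediate early gene was called higher. In detection 14 of 20 p53 target, 15 of 23 S phase and 9 of 16 immediate early genes were below 0, against 72.1% of all genes, and none was called. In the amino acid stress list Nupr1, a stress-induced chromatin regulator gene, was the only detection call, at 50, 44.0 and 40.5% of inhibited wells, against 60.4, 49.7 and 54.5% of control wells (log2 odds ratio -0.58 ± 0.14, adjusted p = 0.0109, and 0.0993 after centring). Slc3a2, an amino acid transporter subunit of the same list, was at 1520, 1179 and 1656 CPM in inhibited wells, against 1105, 980 and 1112 CPM in control wells (edgeR adjusted p = 0.23).

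Well-to-well variance was higher in inhibited wells for most genes, without a single gene passing the test. The Fano factor, the variance over the mean across wells at equal depth, had a median over 6121 genes of 2.07, 2.20 and 2.31 in inhibited wells, against 1.96, 2.00 and 1.78 in control wells. Of these genes 79.2% had a higher Fano factor in inhibited wells, with a median log2 difference of 0.18; without plate 3 these were 68.3% and 0.10. No gene was called by limma (0 of 6121, 0.0%); 459 had an unadjusted p under 0.05 (286 without plate 3) and 432 of those were higher. When the dependence of the Fano factor on the mean was removed within each library, which also removes any displacement common to all genes, the median difference was -0.01, 309 genes had an unadjusted p under 0.05, 120 of them higher, and again 0 were called.

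**Figure D4:**
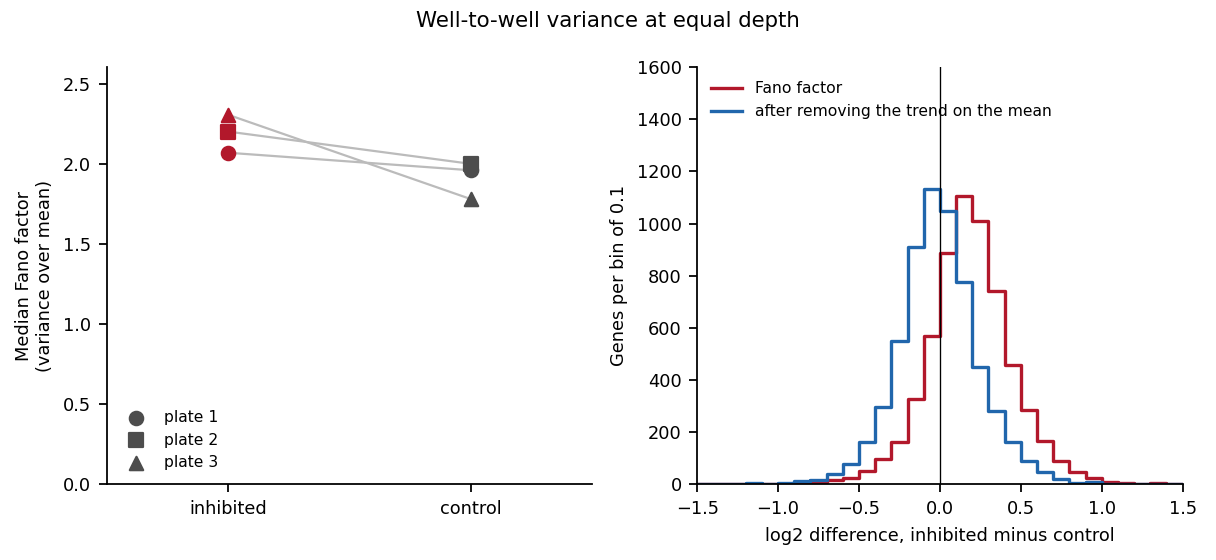
Left, median Fano factor of 6121 genes on each plate, inhibited wells before control wells; right, the distribution of log2 differences over genes for the Fano factor (red) and after removing its trend on the mean within each library (blue). The red curve is centred on 0.18 and the blue curve on -0.01.

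On the higher side the genes with the smallest variance p were Slc4a11, Dyrk1a, Ppp2r5d, Mut, Reep3 and Atg4b. Slc4a11, a membrane transporter gene, had Fano factors of 4.95, 4.84 and 3.94 in inhibited wells, against 1.95, 1.94 and 1.56 in control wells (log2 difference 1.33 ± 0.20, SE, limma adjusted p = 0.452); its fullest well held 17, 13 and 12 UMIs, against 6, 5 and 4. Dyrk1a, a protein kinase gene, had 2.94, 4.73 and 3.80, against 1.60, 1.53 and 1.32 (adjusted p = 0.452), while its mean was 0.178, 0.129 and 0.142 UMIs per well, against 0.155, 0.139 and 0.106. On the lower side were Map1a, Anxa1, Reps1, Flnc, Fam213b and Herc1. Map1a, a microtubule-associated protein gene, had 2.19, 2.12 and 2.92 in inhibited wells, against 5.73, 7.39 and 7.45 in control wells (-1.52 ± 0.32, adjusted p = 0.615). The groups did not overlap for Slc4a11, Dyrk1a and Map1a; over all genes 16.0% did not overlap on the higher and 1.06% on the lower side.

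Whole wells were also slightly less alike. The mean distance between 2 wells of a library, 1 minus the Pearson correlation of their log2 counts, was 0.489, 0.501 and 0.515 in inhibited wells, against 0.486, 0.491 and 0.478 in control wells (mean difference 0.0165 ± 0.018, SD, n = 3; exact sign permutation p = 0.25). It rests mostly on plate 3. The SD of log2 UMIs over wells was 1.84, 1.74 and 1.97 in inhibited wells, against 1.69, 1.73 and 1.76 in control wells, and under the stricter well filter the plates went in both directions.

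The shape of the distribution over wells was compared by the Wasserstein distance, the area between 2 cumulative curves divided by the gene's mean. Between-group distances compare wells of 1 plate, and within-group distances compare plates. The median distance was 0.169, 0.178 and 0.235 between inhibited and control wells of the same plate, 0.204 to 0.223 between plates of inhibited wells and 0.194 to 0.218 between plates of control wells, so the between-group median was below the others on plates 1 and 2 and above them on plate 3. In 93 of 6121 genes (1.52%) the smallest of the 3 between-group distances exceeded the largest of the 6 between-plate distances. This rule is no test, and some genes would meet it without any difference between the groups. Of these 67 had a lower and 26 a higher mean level, 11 were ribosomal protein genes (of 73 measured), and 27 were also called in detection. The largest ratios were those of Rpl22l1, Dppa5a, Sycp1, Zfp979, Rpl32 and Timm17a.

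Dppa5a differed in the lower and middle part of its distribution. Its mean level was 4687, 4235 and 3823 CPM in inhibited wells, against 5489, 5477 and 5578 CPM in control wells (log2 difference -0.38 ± 0.09, SE, edgeR adjusted p = 0.355). The median thinned well held 12, 10 and 11 UMIs in inhibited wells, against 23, 25 and 27.5 in control wells, whereas the 99th percentile was 127, 114 and 109 UMIs, against 112, 123 and 113. Wells with 5 UMIs or fewer made up 33.1, 37.3 and 30.1% of inhibited wells, against 17.1, 18.3 and 12.5% of control wells, and wells with 20 or fewer 61.6, 63.9 and 65.4%, against 45.1, 45.5 and 37.2%. Low-count wells were thus more frequent among inhibited wells on every plate, while the highest counts overlapped. Its Fano factor was 34.7, 30.6 and 29.7, against 25.6, 27.5 and 20.8. The smallest between-group distance was 0.267 and the largest between-plate distance 0.118.

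Rpl32 lay lower along its range and Timm17a higher at its upper end. Rpl32, a ribosomal protein gene, had a 10th percentile of 2, 3 and 2 UMIs in inhibited wells, against 4, 4 and 4 in control wells, and a 90th percentile of 14, 13 and 12, against 16, 16 and 16. Timm17a, a subunit of the mitochondrial inner membrane import channel, went the other way, with a 90th percentile of 12, 12 and 12.9 UMIs in inhibited wells, against 11, 11 and 10 in control wells. The mean of Rpl22l1 among thinned wells with any UMI was 1.74, 1.4 and 1.67 in inhibited wells, against 1.71, 1.75 and 1.87 in control wells. It was thus lower on plates 2 and 3 but not on plate 1. Rpl22l1 averaged 0.618 UMIs per thinned well, so more wells at 0 and a lower level cannot be told apart. Zfp979, a zinc finger gene, was detected in 20.6, 20.9 and 18.7% of inhibited wells, against 30.7, 29.9 and 28.5% of control wells (limma adjusted p = 0.000598). Gc and mt-Rnr2 were not separated by this measure, with ratios of 0.961 and 0.800.

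**Figure D5:**
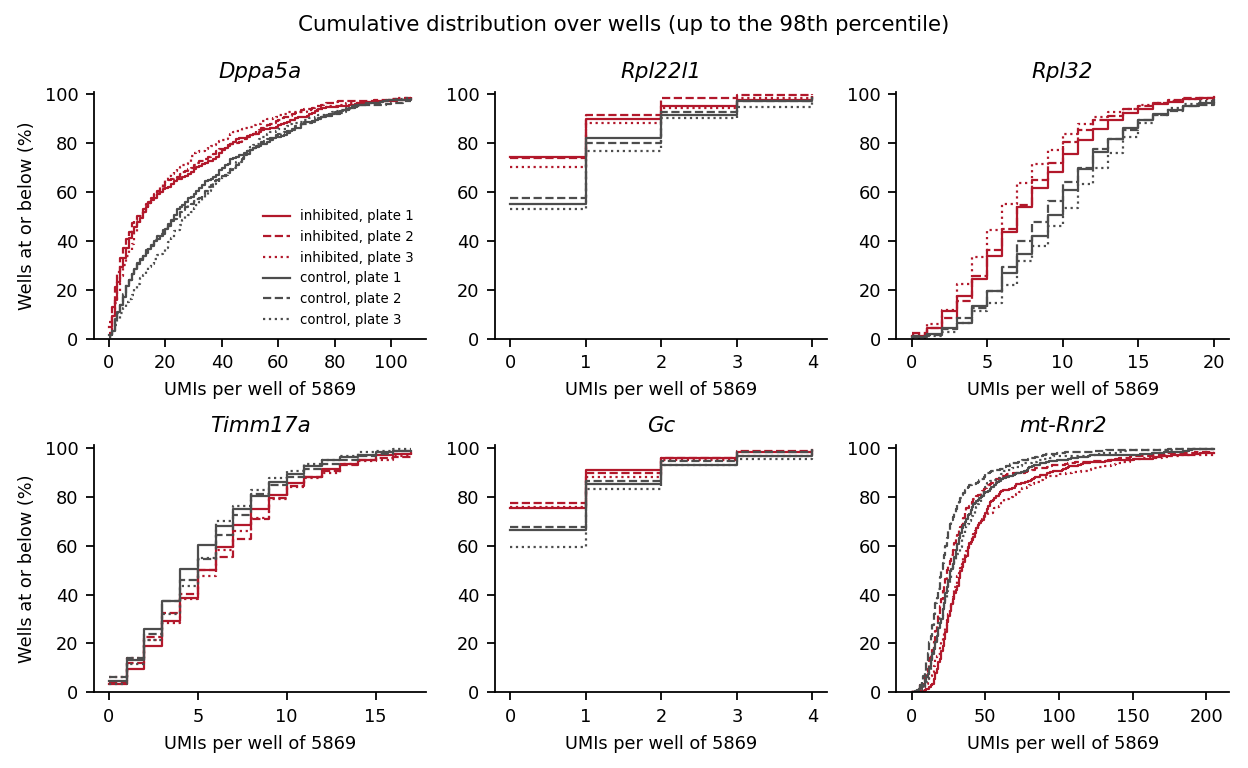
Cumulative percentage of wells (vertical axis) at or below a UMI count (horizontal axis) at 5869 UMIs per well, for 6 genes; inhibited wells in red and control wells in grey, with 1 line style per plate. The Dppa5a curves lie apart at low and middle counts, with 30.1 to 37.3% of inhibited wells at 5 UMIs or fewer against 12.5 to 18.3% of control wells, and meet at high counts.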

How the data were processed

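Per the labels, cells came from the inhibited, Mll1-/- and control types on 3 plates; the submitters' processing notes name STAR 2.5.2b, featureCounts of Subread 1.4.6-p1 and mm10. The authors deposited UMI counts per gene and well (29267 mouse gene identifiers, 28682 with a symbol in the reference annotation used here), which were not normalized. Summed counts and gene numbers equalled the deposited per-well report in 4640 of 4640 wells. Strand use in counting was not given in the sources used here. No doublet caller was run. In mean level a fit without the deepest 5% of wells stood in its place and called 1 gene. No such fit was run for detection, variance or shape.

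Counts were summed per plate and cell type (9 libraries) and tested with edgeR 4.0.16 (TMM, filterByExpr, quasi-likelihood, type plus plate; R 4.3.3). CPM use the TMM library sizes. Wells were thinned to 5869 UMIs, the 10th percentile of kept wells. Log2 odds of detection, with 0.5 added to the wells with and without a UMI, and log2 Fano factors (mean of at least 0.1 UMI) were tested with limma 3.58.1. P-values were adjusted by Benjamini-Hochberg over all genes tested, with a threshold of 0.05. Well medians were compared by exact sign permutation over 3 plates. DESeq2 1.42.0 was an alternative. Python 3.11.15 with scipy 1.17.1 did the rest.

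The plates pair the libraries by design; deviations from the type means correlated at 0.324 to 0.465 between inhibited and control libraries of the same plate and at -0.304 to -0.0403 between plates. Genes were named by rank of p: 8 per direction for the mean (at least 10 CPM, same sign on all plates), 6 per direction for detection and variance, the 6 largest shape ratios, and members of the lists. The members and lists were chosen with earlier results of these data known. The shares and counts carry counting error beside the spread between plates.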

Additional observations from a re-analysis of the deposited data

How the results depend on the processing

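The number of genes called depended on the setting; more detection calls were lower than higher in inhibited wells in every setting run. In mean level 1 gene was called, against 32 with the 6 inhibited and control libraries alone, 84 with thinned wells, 108 with no filter on low counts, 277 with DESeq2 and 0 without any 1 of the plates (0 to 0). In detection 154 genes were called, against 75 at a threshold of 2 UMIs, 24 in unthinned wells, and 33 to 54 without 1 of the plates; centring gave 45, the stricter well filter 87 and the expected share 553 (229 when centred), each chosen after seeing the data. Without the plate block the calls were 1 in detection, 0 in mean level and 0 in variance, although the plates pair the libraries. Shape separated 154 genes at 12724 UMIs and 158 by the Kolmogorov-Smirnov distance, against 93. For genes without a stable call the sign turned for Kmt2a detection at 2 UMIs (0.11), for Tm9sf2 at 12724 UMIs (-0.061) and unthinned (-0.30), for Gm5787 unthinned (-0.0013), and for the variance of Flnc (0.32) and Herc1 (0.44) at 12724 UMIs; the cause was not tested. Rpl22l1 detection was called under all alternatives run. At 5869 UMIs per well, genes in under 2% of wells could not be examined.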

Other observations

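A further set of genes was picked out after its values had been seen and so carries no test of its own as a group. Nfe2l2, the transcription factor NRF2 of the oxidative stress response, was detected in 20, 23.3 and 19.7% of inhibited wells at equal depth, against 27.5, 27.9 and 29.2% of control wells (limma adjusted p = 0.0212 over all genes). Nqo1, a quinone reductase, was detected in 23.7, 20.7 and 20.9%, against 25.4, 27.7 and 35.9% (adjusted p = 0.0157), and Srxn1, which repairs oxidised peroxiredoxins, in 11.6, 9.36 and 9.0%, against 15.4, 14.6 and 16.7% (adjusted p = 0.00937). Cbr3, a carbonyl reductase, was detected in 8.98, 7.97 and 7.11% of inhibited wells, against 12.3, 11 and 15.1% of control wells (adjusted p = 0.0165). The plates of these 4 genes did not overlap between groups, which also held in this direction for 14.2% of all genes tested. Other targets of NRF2 were not counted. After centring on each library's median none of the 4 was called (adjusted p from 0.0782 to 0.162).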
